A study of Homo sapiens with 6 samples.

Results

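The genes of glycolysis and of the response to low oxygen were examined in LX-2 cells after exposure to the secretome of colorectal tumor cells. They are 39 genes chosen by symbol among the 60605 genes of the deposited table that carry an Ensembl identifier, and all 39 were found. LX-2 is an established human hepatic stellate cell (HSC) line. HSCs are the pericytes of the liver sinusoid, which become matrix-producing myofibroblasts when activated. The LX-2 cells were kept for 24 h in conditioned medium from HCT116Vector cells (Vector-CM, n = 3) or from HCT116FGFBP1 cells (FGFBP1-CM, n = 3). HCT116 is an established human colorectal carcinoma line. Both HCT116 lines had been infected with lentivirus, carrying the empty vector or the vector with FGFBP1, which encodes a secreted carrier of fibroblast growth factors, and the methods describe the stable lines as clones selected with puromycin. The LX-2 cells of both groups were the same line, and no treatment with low oxygen is named for these libraries. The methods name DMEM with serum for growing the lines and do not state the composition of the conditioned medium. The comparison asks how the mRNAs of these pathways in the stellate cell differ when the tumor cells overexpress FGFBP1. Nothing in the labels says that the 3 libraries of a group came from separate cultures, so p-values measure the spread between these libraries only.

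In glycolysis, glucose enters through carriers of the SLC2A family, is trapped by hexokinase, is split by aldolase and is oxidized to pyruvate with a small yield of ATP. Lactate dehydrogenase can reduce pyruvate to lactate, which leaves through SLC16A carriers, and PDK1 holds pyruvate back from the mitochondrion. When oxygen falls, the prolyl hydroxylases (EGLN proteins) no longer mark the alpha subunits of hypoxia-inducible factor (HIF1A and EPAS1) for breakdown, so that these pair with ARNT, bind short DNA elements and raise most glycolytic genes together with genes such as NDRG1, BNIP3 and VEGFA. HIF1A is controlled mainly as a protein, so its mRNA is a poor readout of HIF activity. Activated stellate cells are known to use glycolysis heavily.

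Total counts were 14003780 to 18508113 per library, and a floor of 3 counts was 0.158 to 0.217 CPM (counts per TMM-scaled library total). FGFBP1-CM replicate 1 stood apart from its group, with a chi-square per gene of 9.63 and 10.5 against the other FGFBP1-CM libraries, where the remaining replicate pairs gave 2.88 to 5.81. Values without it are given beside the members it moved most. Of 15 stellate or myofibroblast markers, LRAT was at 0 in every library, DES was at most 0.270 CPM and ACTA2 was 3.73 to 5.46 CPM, while VIM was 1966 to 2678 CPM and COL1A1 116 to 169 CPM. The summed stellate markers were 3692 to 3948 CPM with Vector-CM, against 2839 to 3400 CPM with FGFBP1-CM, and 12 of the 13 that could be tested had a negative log2 fold change. The part of these markers in the results below was not tested. CDX2, LGALS4, CEACAM5 and KRT20, which mark colorectal epithelium, had at most 3 counts in any library, while KRT8 was 145 to 173 CPM, KRT18 55.7 to 66.6 CPM and CDH17 2.53 to 4.11 CPM. The 10 colorectal markers summed to 219 to 242 CPM with Vector-CM, against 209 to 225 CPM with FGFBP1-CM. The part of these markers was not tested either. The summed hepatocyte markers were 41.5 to 44.5 CPM with Vector-CM, against 18.3 to 28.1 CPM with FGFBP1-CM, with all 6 tested markers lower, and APOA1, APOA2 and TTR had at most 3 counts. In bulk RNA, fewer cells expressing a gene and less RNA of it per cell cannot be told apart.

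The glycolytic and hypoxia-inducible genes leaned downward in FGFBP1-CM by small amounts. Of the 39, 36 had enough counts to be tested, and 30 of these (83.3%) had a negative log2 fold change, where 49.3% of all 16707 tested genes did. Over the alternatives tried, 28 to 31 members were negative. Their median log2 fold change was -0.14, beside 0.00 for all tested genes. Only NDRG1 passed the threshold of the edgeR quasi-likelihood test, an adjusted p under 0.05, and it fell. The share called among all genes in that test was 0.120%, with 0.0658% called lower and 0.0539% called higher, so single calls are rare throughout these libraries.

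At an unadjusted p under 0.05, 11 members (30.6%) were lower and 0 were higher in the edgeR test, and 10.7% of all tested genes were lower at that threshold and 11.1% higher. In 18 members (50%) the 3 FGFBP1-CM libraries all lay below the 3 Vector-CM libraries, where 13.2% of all tested genes did. No tested member lay wholly above, where 12.8% of all tested genes did, and the groups were apart in either direction for 26.0% of tested genes. These counts depend on the scale. In the deposited FPKM, a comparison added after the data were seen, 13 tested members (36.1%) lay wholly below and 1 (PFKM) wholly above, beside 10.2% and 16.1% of all tested genes. SLC16A3, GPI, PFKP, PDK1 and ARNT, whose CPM did not overlap, overlapped in FPKM. An adjusted p between 0.05 and 0.10 was found for 6 members (16.7%) and for 5.46% of all genes. Together the 39 genes took 1.53% to 1.56% of all counts in Vector-CM and 1.41% to 1.48% in FGFBP1-CM, and the groups did not overlap. Without GAPDH, which alone made up 21.1% to 22.2% of the members' counts, the shares were 1.20% to 1.21% and 1.11% to 1.16%. Without FGFBP1-CM replicate 1 the median was -0.14, beside -0.00 for all tested genes. In that edgeR fit 15 members had an unadjusted p under 0.05, all lower. Of all tested genes there, 14.6% had one, counting both directions. Members are genes of 1 pathway measured in the same 6 libraries, so they do not count as independent observations. They were also chosen with earlier results of these data known.

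**Figure D1:**
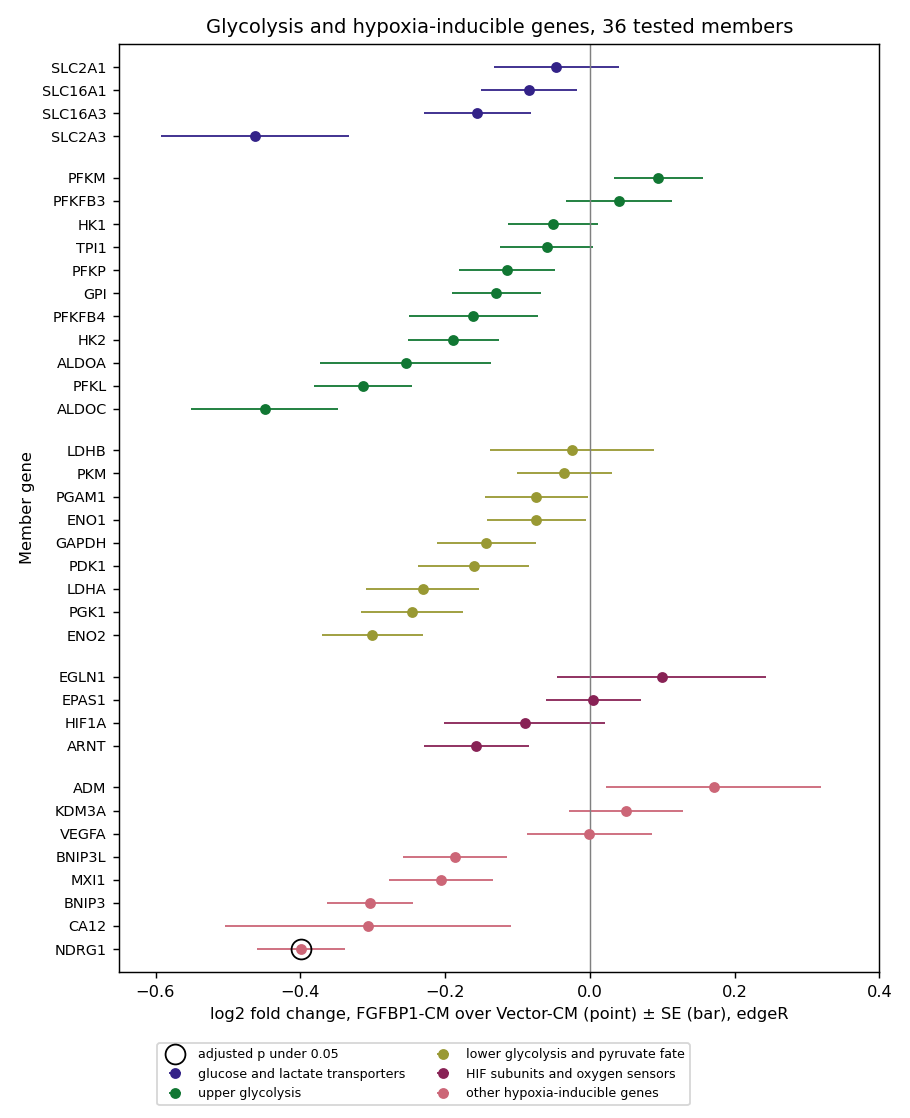
Log2 fold change of FGFBP1-CM over Vector-CM (points) with its SE (bars) from the edgeR fit for the 36 tested members, ordered by value within each role group, with a ring around the member whose adjusted p was under 0.05. Most points lie left of 0, from -0.46 for SLC2A3 to 0.17 for ADM, and NDRG1 alone carries a ring.

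Levels of different genes were set side by side as FPKM, which allows for gene length. Over the 6 libraries, 8 members had a mean of at least 100 FPKM, 16 lay between 10 and 100, 11 between 1 and 10, and 4 under 1. GAPDH led with 1349 ± 66.8 FPKM (SD, n = 6), followed by TPI1 with 339 ± 11.7, ENO1 with 336 ± 15.7 and HIF1A with 294 ± 35.4. The means of TPI1 and ENO1 differed by less than their spread over libraries. PKM at 191 FPKM, PGK1 at 176, LDHA at 127 and BNIP3L at 103 completed the upper group. At the bottom were CA12 at 0.452 FPKM, ANKRD37 at 0.234, CA9 at 0.105 and EGLN3 at 0.0418. CA9, which encodes a tumor-associated carbonic anhydrase and is among the most oxygen-sensitive genes known, had 1 to 4 counts in every library.

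**Figure D2:**
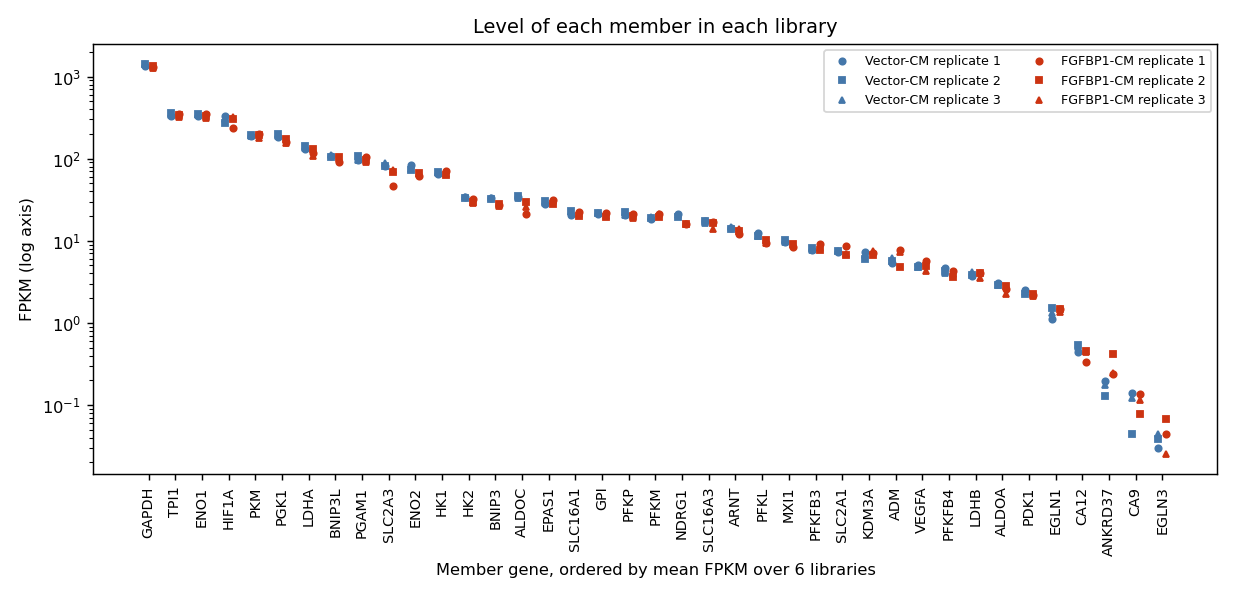
FPKM of each of the 39 members in each library on a log axis, ordered by the mean over 6 libraries, with blue symbols for Vector-CM and red for FGFBP1-CM. The order runs from GAPDH at 1349 FPKM to EGLN3 at 0.0418, and the distance between the groups is small beside the distance between genes.

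Promoter sequences were read from RefSeq (GRCh38.p14), where 34 of the 39 members have 64 listed starts, each taken from 250 bases before to 50 bases after the start. NDRG1, BNIP3L, SLC2A3, VEGFA and SLC16A1 were not matched. The core of a hypoxia response element is ACGTG or GCGTG on either strand. ACGTG was found in 35.9% of the members' promoters, in 25% of the promoters of tested genes and in 21.4% of all 35116 listed promoters. For GCGTG the shares were 43.8%, 47.6% and 36.5%. Counted by gene, 19 of 34 members (55.9%) held ACGTG at 1 or more starts, beside 31.9% of tested genes, but a gene with several listed starts has more chances of a match. The palindrome CACGTG, an E-box bound by MYC, MAX and other factors, contains ACGTG on both strands, and it was found in 12.5% of the members' promoters and 9.10% of those of tested genes. A match is a description of the sequence and no evidence of binding. All 8 members that had an unadjusted p under 0.05 and a listed promoter held ACGTG or GCGTG. So did 21 of the 23 other tested members with a promoter (91.3%), beside 69.0% of tested genes. Of the 8, 7 held ACGTG (ALDOC, BNIP3, ENO2, HK2, LDHA, MXI1 and PGK1) and PFKL did not, and 10 of the 23 others held it. For those 7 members the site nearest before a listed start is shown on the strand of the gene from 5′ to 3′, with ACGTG, or its reverse complement CACGT, in capitals. They lie at chr2:74834069-74834093 (plus strand, 48 bases before the start) for HK2, chr17:28576909-28576933 (minus strand, 28 bases) for ALDOC, chrX:78104055-78104079 (plus strand, 183 bases) for PGK1, chr12:6914452-6914476 (plus strand, 118 bases) for ENO2, chr11:18394480-18394504 (plus strand, 73 bases) for LDHA, chr10:131982042-131982067 (minus strand, 134 bases) for BNIP3 and chr10:110210108-110210132 (plus strand, 113 bases) for MXI1. In BNIP3 the site is the palindrome.
HK2: tgggcgtgcgCACGTcactgatccg
ALDOC: ccggaggagtCACGTagctctgcga
PGK1: acggaagccgCACGTctcactagta
ENO2: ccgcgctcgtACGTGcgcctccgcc
LDHA: tgggttcccgCACGTccgccggccc
BNIP3: gcacgcgccgCACGTGccacacgcac
MXI1: ggccaccagtCACGTaagcagagag

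Among the carriers, the high-affinity glucose transporter SLC2A3 (GLUT3) was the main glucose carrier of these cells and had the lowest log2 fold change of all members. SLC2A3 (ENSG00000059804, chromosome 12, 7919230 to 7936275, minus strand, GENCODE 29 on GRCh38) was at 501, 506 and 544 CPM in Vector-CM replicates 1 to 3 and at 274, 415 and 437 CPM in FGFBP1-CM replicates 1 to 3. The groups did not overlap, and FGFBP1-CM replicate 1 lay far below the rest. The log2 fold change was -0.46 (SE 0.129; adjusted p = 0.0877, edgeR), or 0.726 of the Vector-CM level. Leaving out FGFBP1-CM replicate 1 gave -0.28 (adjusted p = 0.0689, edgeR), so that library moved the value by more than 1.5 times. SLC2A14, a near-identical paralog, had 2 to 9 counts per library. SLC2A1 (GLUT1), the glucose carrier found in most tissues and a known HIF target, was at 49.0, 50.6 and 51.0 CPM and at 55.4, 44.2 and 46.0 CPM in the same order, and its log2 fold change was -0.05 with overlapping groups, or -0.15 when FGFBP1-CM replicate 1 was left out. In FPKM, SLC2A3 made up 91.6% to 92.1% of the SLC2A1 and SLC2A3 sum in Vector-CM and 84.4%, 91.1% and 91.2% in FGFBP1-CM replicates 1 to 3.

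SLC16A3 (MCT4), the lactate exporter of glycolytic cells, was at 162, 165 and 157 CPM in Vector-CM and at 154, 152 and 128 CPM in FGFBP1-CM. Its groups did not overlap, although FGFBP1-CM replicate 1 came close to Vector-CM replicate 3, and its log2 fold change was -0.16 (SE 0.0743; adjusted p = 0.244, edgeR), which became -0.08 when FGFBP1-CM replicate 3 was dropped. SLC16A1 (MCT1), a carrier that works in both directions, had a log2 fold change of -0.08 and overlapping groups, with values of -0.13 to -0.05 when single libraries were left out. The summed FPKM of these lactate carriers overlapped between the groups, at 38.2 to 40.4 in Vector-CM and 35.3 to 39.4 in FGFBP1-CM.

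In upper glycolysis, from glucose to the triose phosphates, 9 of 11 members had a negative log2 fold change, the median was -0.13, and ALDOC, PFKL and HK2 had an unadjusted p under 0.05. No member of this group passed the adjusted threshold. Hexokinase 2 (HK2), the inducible enzyme that traps glucose in the cell and whose promoter sequence is given above, was at 201, 197 and 207 CPM in Vector-CM and at 187, 174 and 170 CPM in FGFBP1-CM. All FGFBP1-CM libraries lay below all Vector-CM libraries, and the log2 fold change was -0.19 (SE 0.0630; adjusted p = 0.121, edgeR). Its constitutive counterpart HK1, at 66.7 FPKM against 31.9 FPKM for HK2 over the 6 libraries, had a log2 fold change of -0.05 with overlapping groups, and -0.08 with FGFBP1-CM replicate 1 removed. GPI, the next enzyme, was at 228, 239 and 236 CPM and at 225, 207 and 210.05 CPM, with groups that did not overlap but came close and a log2 difference of -0.13 (SE 0.0618; adjusted p = 0.244, edgeR).

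Phosphofructokinase commits sugar to glycolysis and has 3 isoforms. The liver-type isoform PFKL (ENSG00000141959, chromosome 21, 44300051 to 44327376, plus strand) was at 112, 104 and 104 CPM in Vector-CM and at 81.7, 91.0 and 84.1 CPM in FGFBP1-CM. The groups were well apart, by more than the range within either, and the log2 fold change was -0.31 (SE 0.0674; adjusted p = 0.0568, edgeR). The platelet-type isoform PFKP was at 162, 176 and 162 CPM and at 161, 155 and 145 CPM, with groups that touched without overlapping and a log2 fold change of -0.12, which was -0.07 without Vector-CM replicate 2 and -0.08 without FGFBP1-CM replicate 3. PFKM, the muscle-type isoform, had a log2 fold change of 0.09 with overlapping CPM, while its FPKM was 18.5, 18.8 and 19.3 in Vector-CM and 20.9, 19.6 and 21.3 in FGFBP1-CM, without overlap. PFKM and SENP1, a gene on the opposite strand, share 8.58% of the PFKM exon bases, and the strand setting of the counting is not given in the sources used here. Of the bifunctional enzymes that set the allosteric activator of phosphofructokinase, PFKFB3 had a log2 fold change of 0.04 and PFKFB4 of -0.16, both with overlapping groups. With FGFBP1-CM replicate 1 left out, PFKFB3 was at -0.01 and PFKFB4 at -0.22.

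Aldolase C (ALDOC), an isoform best known from brain, was the main aldolase counted in these cells. ALDOC (ENSG00000109107, chromosome 17, 28573115 to 28577264, minus strand) was at 89.0, 93.3 and 87.7 CPM in Vector-CM and at 54.4, 77.45 and 66.2 CPM in FGFBP1-CM. Vector-CM was tight and FGFBP1-CM was spread, with replicate 1 lowest and no overlap between the groups. The log2 fold change was -0.45 (SE 0.101; adjusted p = 0.0619, edgeR), or 0.732 of the Vector-CM level, and it was -0.32 without FGFBP1-CM replicate 1 (adjusted p = 0.0617, edgeR). ALDOA, the muscle-type aldolase that most cells use, was at 11.9, 11.1 and 11.4 CPM and at 9.55, 10.7 and 8.56 CPM, without overlap, and its log2 fold change was -0.25 (SE 0.118; adjusted p = 0.231, edgeR). In the GENCODE 29 annotation 42.3% of the ALDOA exon bases belong also to another gene on the same strand, which had 35 to 52 counts, so the low level of ALDOA may miss reads that could not be assigned to 1 gene. TPI1, which interconverts the triose phosphates, had the highest FPKM of this group. It was at 334, 355 and 336 FPKM in Vector-CM and 348, 338 and 321 FPKM in FGFBP1-CM, with overlapping groups and a log2 fold change of -0.06, and of -0.03 after leaving out Vector-CM replicate 2 or FGFBP1-CM replicate 3.

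In lower glycolysis and at the fate of pyruvate, all 9 members had a negative log2 fold change, of which LDHB turned to 0.01 when libraries were scaled by size only. Their median was -0.14, and ENO2, PGK1 and LDHA had an unadjusted p under 0.05. The groups did not overlap for these 3 and for GAPDH and PDK1. GAPDH, which oxidizes glyceraldehyde phosphate and is often taken as a reference gene, was at 3251, 3500.0 and 3456 CPM in Vector-CM and at 3024, 3204 and 3016 CPM in FGFBP1-CM. The lowest Vector-CM library was close to the highest FGFBP1-CM library, and the log2 fold change was -0.14 (SE 0.0679; adjusted p = 0.241, edgeR). Counts assigned to GAPDH pseudogenes made up 0.496% of GAPDH and its copies together.

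Phosphoglycerate kinase 1 (PGK1), which makes the first ATP of the pathway and is a classic HIF target, was at 996, 1088 and 1039 CPM in Vector-CM and at 853, 946 and 833 CPM in FGFBP1-CM. PGK1 (ENSG00000102144, chromosome X, 77910739 to 78129296, plus strand) thus lay lower in every FGFBP1-CM library, and its log2 fold change was -0.25 (SE 0.0705; adjusted p = 0.0910, edgeR). PGAM1, the mutase that follows, had a log2 fold change of -0.07 with overlapping groups (-0.12 to -0.02 over fits that each lacked 1 library), and the X-linked copy PGAM4 had 11 to 22 counts. Enolase 2 (ENO2, ENSG00000111674, chromosome 12, 6913745 to 6923698, plus strand), the neuronal enolase that hypoxia also induces in other cells, was at 358, 319 and 331 CPM in Vector-CM and at 256, 288 and 275 CPM in FGFBP1-CM. No library of one group reached the other, and the log2 fold change was -0.30 (SE 0.0695; adjusted p = 0.0648, edgeR). Without FGFBP1-CM replicate 1 the ENO2 value was -0.25 (adjusted p = 0.0978, edgeR). ENO1, the ubiquitous enolase and the more abundant of the pair in FPKM, had a log2 fold change of -0.07 with overlapping groups, and of -0.03 once FGFBP1-CM replicate 3 was removed.

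Pyruvate kinase (PKM) was among the steadiest members, with 191, 196 and 187 FPKM in Vector-CM and 199, 194 and 181 FPKM in FGFBP1-CM and a log2 fold change of -0.04. Lactate dehydrogenase A (LDHA), the form that favors lactate production, was at 798, 873 and 826 CPM in Vector-CM and at 689, 790.9 and 647 CPM in FGFBP1-CM. Its groups were separated by a narrow margin, between Vector-CM replicate 1 and FGFBP1-CM replicate 2, and its log2 fold change was -0.23 (SE 0.0786; adjusted p = 0.126, edgeR). LDHB, the form that favors pyruvate, was at 3.73 to 4.14 FPKM in Vector-CM and 3.53 to 4.09 FPKM in FGFBP1-CM. In the annotation 33.4% of its exon bases are shared with another gene on the same strand that had 0 counts. The level of LDHB may therefore miss reads that could not be assigned to 1 gene. PDK1, which shuts pyruvate dehydrogenase, was at 37.6, 33.6 and 36.05 CPM and at 31.6, 33.3 and 31.2 CPM, narrowly apart, with a log2 difference of -0.16 (SE 0.0768; adjusted p = 0.245, edgeR).

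**Figure D3:**
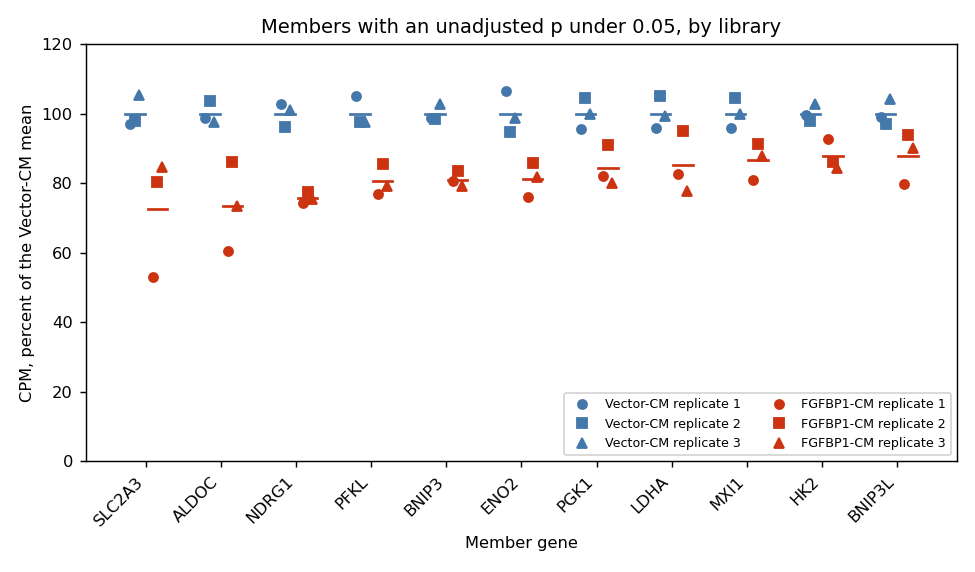
CPM of the 11 members with an unadjusted p under 0.05 in each library, as a percent of the Vector-CM mean of that gene, with group means as bars. Every FGFBP1-CM symbol lies below every Vector-CM symbol of the same gene, and FGFBP1-CM replicate 1 (red circle) is far below its group for SLC2A3 and ALDOC but not for NDRG1, BNIP3 or HK2.

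The subunits of HIF and the oxygen sensors showed no common direction, with 2 tested members negative and 2 positive, a median of -0.04 and none at an unadjusted p under 0.05. HIF1A, the oxygen-regulated alpha subunit, had the highest FPKM of this group and was at 1708, 1400.2 and 1589 CPM in Vector-CM and at 1186, 1589 and 1639 CPM in FGFBP1-CM. Its spread within each group exceeded the difference between them. The log2 fold change of HIF1A was -0.09 and turned to 0.05 without FGFBP1-CM replicate 1. EPAS1 (HIF-2 alpha), the second alpha subunit, had a log2 fold change of 0.00 (SE 0.0662) with overlapping groups, which left its level within 1 SE of no difference. ARNT, the shared beta subunit, was at 92.8, 91.4 and 97.3 CPM in Vector-CM and at 76.5, 85.9 and 90.35 CPM in FGFBP1-CM. ARNT did not overlap between the groups, FGFBP1-CM replicate 3 came close to Vector-CM replicate 2, and the log2 fold change was -0.16 (SE 0.0727; adjusted p = 0.230, edgeR), or -0.09 without FGFBP1-CM replicate 1. The prolyl hydroxylase EGLN1 (PHD2) was scarce, at 1.10 to 1.53 FPKM in Vector-CM and 1.35 to 1.48 FPKM in FGFBP1-CM, with a log2 fold change of 0.10 (SE 0.144), and 0.21 in the fit lacking Vector-CM replicate 2. EGLN3 (PHD3), whose gene is itself strongly HIF-induced in many cells, had counts of 3 to 8 and so could not be tested.

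Among the other hypoxia-inducible genes, NDRG1, BNIP3, MXI1 and BNIP3L had an unadjusted p under 0.05, all lower, while VEGFA, ADM and KDM3A did not separate the groups. NDRG1 (ENSG00000104419, chromosome 8, minus strand), a stress-responsive growth regulator and one of the most widely used hypoxia markers, was at 256, 239.95 and 252 CPM in Vector-CM and at 186, 193 and 188 CPM in FGFBP1-CM. Both groups were tight and far apart, and FGFBP1-CM replicate 1 lay with its group. NDRG1 fell by 0.40 on the log2 scale (SE 0.0604; adjusted p = 0.0249, edgeR), to 0.758 of its Vector-CM level. The call was kept in 11 of 16 alternatives, also when FGFBP1-CM replicate 1 was dropped (-0.38, adjusted p = 0.0167, edgeR). It was lost when Vector-CM replicate 1, 2 or 3 was left out (adjusted p = 0.0833, 0.108 and 0.242, edgeR) and in limma on FPKM (adjusted p = 0.143 and 0.135), with log2 fold changes from -0.43 to -0.35 over all alternatives.

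BNIP3 and BNIP3L encode related receptors that mark mitochondria for autophagy. BNIP3 (ENSG00000176171, chromosome 10, 131966455 to 131982013, minus strand) was at 176, 175 and 183 CPM in Vector-CM and at 143, 148 and 141 CPM in FGFBP1-CM. Both groups were tight and they lay apart. The log2 fold change was -0.30 (SE 0.0599; adjusted p = 0.0568, edgeR), and -0.30 without FGFBP1-CM replicate 1 (adjusted p = 0.0502, edgeR). BNIP3 pseudogenes took 1.67% of the counts of BNIP3 and its copies. BNIP3L (NIX), the member with the highest FPKM of this group, was at 454, 445 and 477 CPM in Vector-CM and at 365, 431 and 413 CPM in FGFBP1-CM. The groups did not overlap, FGFBP1-CM replicate 1 was lowest, and the log2 fold change was -0.19 (SE 0.0719; adjusted p = 0.161, edgeR), or -0.12 without FGFBP1-CM replicate 1 (adjusted p = 0.425, edgeR).

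MXI1, a repressor that competes with MYC for MAX, was at 56.9, 61.9 and 59.2 CPM in Vector-CM and at 48.1, 54.2 and 52.1 CPM in FGFBP1-CM. All 3 FGFBP1-CM libraries were lower, and the log2 fold change was -0.21 (SE 0.0720; adjusted p = 0.134, edgeR). Without FGFBP1-CM replicate 1 the MXI1 value was -0.15 (adjusted p = 0.320, edgeR). VEGFA, the angiogenic factor and a standard HIF target, was at 71.2 ± 1.40 CPM with Vector-CM, against 71.1 ± 9.25 CPM with FGFBP1-CM (SD, n = 3), with a log2 fold change of -0.00 (SE 0.0860). Leaving out 1 library at a time moved the VEGFA value between -0.10, without FGFBP1-CM replicate 1, and 0.09. ADM, which encodes the vasodilator adrenomedullin, had a log2 fold change of 0.17 (SE 0.148), with 13.6 ± 1.11 CPM against 15.2 ± 3.40 CPM (SD, n = 3) and overlapping groups. Leaving out FGFBP1-CM replicate 1, 2 or 3 gave ADM values of 0.07, 0.34 and 0.09. The histone demethylase gene KDM3A was at 0.05 and the membrane carbonic anhydrase gene CA12 at -0.31 (SE 0.197) on the log2 fold change scale, and both overlapped between the groups. Dropping Vector-CM replicate 1 moved KDM3A to 0.11, and dropping FGFBP1-CM replicate 1 moved CA12 to -0.15. ANKRD37 had 8, 4 and 6 counts in Vector-CM and 10, 15 and 9 in FGFBP1-CM, and its CPM was wholly higher in FGFBP1-CM. It was too low to be tested, and 35.2% of its exon bases overlap UFSP2 on the opposite strand.

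Summed over isoforms in FPKM, the 13 steps from glucose entry to lactate export showed where the lower levels lay. The groups did not overlap at 6, all lower in FGFBP1-CM, and overlapped at 7. Of all tested genes taken singly, 10.2% lay wholly lower in FPKM and 16.1% wholly higher. Some margins were narrow. The lowest Vector-CM and highest FGFBP1-CM sums were 413.4 and 412.0 FPKM at enolase. They were 135.2 and 134.8 at lactate dehydrogenase, and 1350 and 1334 at GAPDH. The log2 ratio of the means was -0.39 at glucose entry and -0.40 at aldolase, -0.21 at phosphoglycerate kinase, -0.19 at lactate dehydrogenase, -0.11 at GAPDH and -0.08 at enolase. Without FGFBP1-CM replicate 1 these ratios were -0.25 at glucose entry and -0.30 at aldolase, and without FGFBP1-CM replicate 3 the ratio was -0.04 at enolase. The aldolase sum includes ALDOA and the lactate dehydrogenase sum includes LDHB, and the counts of both may miss reads in their shared exon bases. At hexokinase, phosphofructokinase and pyruvate kinase the groups overlapped, with log2 ratios of -0.06, -0.04 and -0.00.

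Within 8 families, the isoform shares did not overlap between groups in 4, the hexokinases, phosphofructokinases, lactate dehydrogenases and glucose transporters. PFKL made up 24.0%, 21.7% and 22.2% of phosphofructokinase FPKM in Vector-CM and 18.2%, 20.4% and 19.1% in FGFBP1-CM, while PFKM went from 36.4% ± 1.20 to 40.95% ± 1.75 (SD, n = 3). HK1 was 66.6% ± 0.776 of hexokinase in Vector-CM and 68.7% ± 0.297 in FGFBP1-CM (SD, n = 3). LDHA was 97.2% and 96.8% of lactate dehydrogenase, a narrow but complete separation, and the LDHB counts may miss reads in shared exon bases. For each of these 4 families the two-sided exact permutation p was 0.1, the smallest that 3 libraries against 3 allow, and 0.2 after adjustment over the 8 families. ALDOC held 92.0% of aldolase FPKM in Vector-CM and 90.9% in FGFBP1-CM, and ENO1 81.5% and 83.7% of enolase, with overlapping shares. The ALDOA counts may also miss reads in shared exon bases, so the ALDOC share may be too high.

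**Figure D4:**
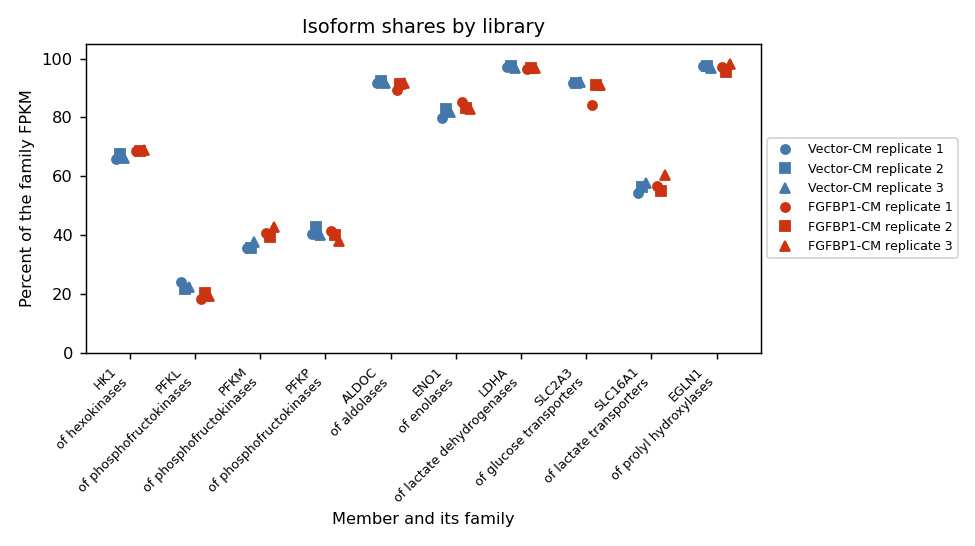
Share of 1 isoform in the summed FPKM of its family, in percent, for each library. The PFKL and PFKM shares lie apart between the groups in opposite directions, and FGFBP1-CM replicate 1 stands alone at 84.4% for SLC2A3.

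Genes of the same pathways outside the set were read from lists, and none of their 108 tested genes passed the adjusted threshold in edgeR. Like the members, these lists were chosen with earlier results of these data known, so they are no independent check. Of 49 tested other hypoxia-inducible genes, 32 (65.3%) had a negative log2 fold change, beside 49.3% of all tested genes, and their median was -0.13. Lower at an unadjusted p under 0.05 were 13 (26.5%) and higher 2 (4.08%), beside 10.7% and 11.1% of all tested genes. The 3 with the lowest p were HMOX1, which breaks down heme and also answers to oxidative stress, at 1.74 (adjusted p = 0.0557), the collagen cross-linking oxidase gene LOX at -0.53 (adjusted p = 0.0566) and IGFBP3, a carrier of insulin-like growth factors, at -0.73 (adjusted p = 0.0568, all edgeR log2 fold changes). HMOX1 and TFRC were the 2 that were higher.

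The 11 pentose phosphate pathway genes, which branch off glucose 6-phosphate, had 9 negative values (81.8%) and a median of -0.07. Of all tested genes, 49.3% were negative and 10.7% were lower at an unadjusted p under 0.05. At that threshold 3 of the 11 (27.3%) were lower and 0 higher. These were transketolase (TKT) at -0.30 (adjusted p = 0.0658, edgeR), PRPS2, which passes ribose 5-phosphate on to nucleotide synthesis, at -0.25 (adjusted p = 0.0912, edgeR) and H6PD, the dehydrogenase of the endoplasmic reticulum, at -0.31 (adjusted p = 0.137, edgeR). Of 19 other glycolysis and sugar entry genes, 8 were negative with a median of 0.01. At the same threshold 3 of these genes (15.8%) were lower and 2 (10.5%) higher, beside 10.7% and 11.1% of all tested genes. Their lowest p belonged to BSG, the chaperone of the lactate carriers, at -0.19 (adjusted p = 0.119, edgeR), the glucose carrier SLC2A10 at 0.65 (adjusted p = 0.130, edgeR) and TIGAR, a phosphatase that restrains glycolysis, at 0.46 (adjusted p = 0.149, edgeR).

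Genes that bring pyruvate into the mitochondrion had values of both signs. Of 14, 8 (57.1%) were positive, beside 50.7% of all tested genes, with a median of 0.05. At an unadjusted p under 0.05, 3 (21.4%) were higher, beside 11.1% of all tested genes, and 0 were lower. The 3 were DLD at 0.21 (adjusted p = 0.0919, edgeR) and DLAT at 0.24 (adjusted p = 0.146, edgeR), both subunits of the pyruvate dehydrogenase complex, and PDK3, a kinase that inhibits the complex, at 0.18 (adjusted p = 0.185, edgeR). Oxygen sensing and HIF machinery was split evenly, 8 negative and 8 positive with a median of -0.00. The cofactor EP300 was at 0.22 (adjusted p = 0.128, edgeR), the ubiquitin ligase scaffold CUL2 at 0.22 (adjusted p = 0.140, edgeR) and the asparagine hydroxylase HIF1AN at 0.21 (adjusted p = 0.159, edgeR).

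**Figure D5:**
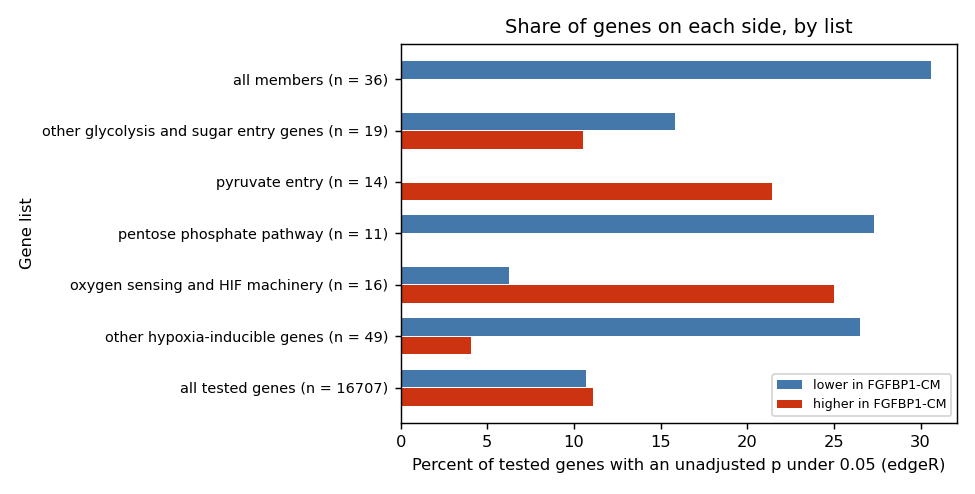
Percent of tested genes with an unadjusted p under 0.05 in the edgeR test, lower (blue) or higher (red) in FGFBP1-CM, for the members, the other lists and all 16707 tested genes. Members stand at 30.6% lower and 0 higher, other hypoxia-inducible genes at 26.5% and 4.08%, and all genes at 10.7% and 11.1%.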

How the data were processed

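RNA-seq libraries of LX-2 cells were grouped by their sample labels into Vector-CM and FGFBP1-CM. Alignment was done by the authors with HISAT2 2.0.5 and counting per gene with featureCounts 1.5.0-p3, and they deposited a raw count and an FPKM value (the count relative to gene length and sequencing depth) for each gene and library. In the methods both poly(A) purification and depletion of ribosomal RNA are described. The submitters' processing notes name hg18 as the build, yet 96.3% of the Ensembl identifiers were found in GENCODE 29 (GRCh38), whose coordinates are used here and need not be those of the counting. The annotation release and the strand setting are not given in the sources used here. The deposited counts and FPKM imply the same gene length in the 6 libraries for 38002 genes (tolerance 0.001). The table held 60780 rows, of which 175 without an Ensembl identifier took 0.0733% to 0.0800% of the counts and were kept in library sizes and tests. Its 6 count and 6 FPKM columns were the per-sample columns used, and no sample column was left out.

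Counts were compared in R 4.3.3 with the quasi-likelihood F-test of edgeR 4.0.16 (filterByExpr, TMM, no covariate), with Benjamini-Hochberg adjustment over 16707 tested genes and a threshold of 0.05. The SE was obtained by dividing the absolute log2 fold change by the root of the F statistic. Isoform shares were tested by exact permutation (SciPy 1.17.1). All members are named, those with an unadjusted p under 0.05, with groups apart in CPM or with the highest FPKM of their role get values per library, and the 3 genes with the lowest p are named in each other list. The members and lists were chosen with earlier results of these data known. Alternatives were RLE scaling, library size only, other count filters, DESeq2 1.42.0, a block on the replicate number, limma 3.58.1 on log2 FPKM with a pseudocount of 1 or 0.1, a correction for the GC and length trend of each library (loess span 0.3), both together, each library left out in turn, and isoform shares from CPM or with pseudogene copies added. Group overlap in the deposited FPKM and by library size only, and step sums with 1 library left out, were added after the data were seen. The procedures were tested on simulated data. No replicates were merged, since each pair differed by more than sampling noise. Floors cover counting error only.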

Additional observations from a re-analysis of the deposited data

How the results depend on the processing

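The lower levels of the members depended little on the processing, while the number of genes past the threshold depended on it strongly. The main fit called 20 of 16707 tested genes, 1 member and 0 genes of the other lists. RLE scaling gave 38 genes and 1 gene of the other lists. No filter on low counts gave 1382 of 38002 tested genes, 8 members and 15 genes of the other lists. The other fits tested 15027 to 17234 genes. A mean of at least 1 CPM gave 11 genes, and DESeq2 gave 616 genes, 6 members and 9 genes of the other lists. Limma on log2 FPKM, with a pseudocount of 1 or of 0.1, gave 1 gene and 0 members in each case. In each, 12 members had an unadjusted p under 0.05, 1 of them higher. Of all tested genes, 18.4% and 18.6% had one. The GC and length correction gave 153 genes, 2 members and 7 genes of the other lists. It moved Spearman's rho between log2 fold change and GC content across genes from -0.206 to -0.0223. Leaving out 1 library gave 4 to 883 genes, 0 to 8 members and 0 to 12 genes of the other lists. NDRG1 was lost without any of the 3 Vector-CM libraries, and 8 members were called without FGFBP1-CM replicate 2 and 3 without replicate 3. In these last 2 fits 883 and 402 of all tested genes were called. The cause of these shifts was not tested.

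The median log2 fold change of the members was -0.136 in the main fit. It was -0.102 by library size only, and also -0.102 with no filter on low counts. The limma fits gave -0.103 with 0.1 added to each FPKM value, and -0.0858 with 1 added. Over all tested genes the median was 0.0032 in the main fit, 0.0371 by library size only and 0.0178 with no filter. In the limma fits it was 0.0354 with 0.1 added and 0.0236 with 1 added. What moved the members' median was not tested. The members' median was -0.14 to -0.12 when 1 library was left out. The number of members with an unadjusted p under 0.05 ranged from 9 to 16 over the fits. Of all tested genes, 12.9% to 24.2% had one. The families with separate isoform shares ranged from 4 to 6. Wholly lower in FGFBP1-CM were 18 tested members by TMM-scaled CPM, and 13 by library size only or in the deposited FPKM, a check added after the data were seen. In 25 single member values, against 518 whose direction and side of the threshold held, the sign changed, all in members close to 0. LDHB was 0.00985 by library size only, and 0.00505 and 0.00584 in the limma fits. VEGFA was 0.0339 by library size only, 0.0116 with no filter, 0.0209 and 0.0234 in the limma fits, 0.00718 with the GC and length correction and 0.00169 with the block added. KDM3A was -0.00228 and -0.00106 in these last fits. With 1 library left out, the ranges crossed 0 for SLC2A1 (-0.15 to 0.0163), PFKFB3 (-0.0144 to 0.0802), PKM (-0.0547 to 0.00107), LDHB (-0.0665 to 0.0404), HIF1A (-0.17 to 0.0462), EPAS1 (-0.0271 to 0.0466), EGLN1 (-0.0249 to 0.21), VEGFA (-0.10 to 0.0863) and KDM3A (-0.0259 to 0.11).

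With the replicate number as a block, 90 genes, 1 member (NDRG1) and 4 genes of the other lists were called. In that edgeR fit 14 members had an unadjusted p under 0.05, beside 21.3% of all tested genes. The block together with the GC and length correction gave 241 genes, 6 members and 11 genes of the other lists. The deviations of libraries with the same number correlated at -0.0940, -0.0265 and 0.111, so the numbers did not pair the libraries, and not every library correlated best with its own number. Depth limits CA9, EGLN3 and ANKRD37, which had 1 to 15 counts and could not be compared.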
